A study of Mus musculus with 6 samples.

Results

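The genes for the proteins of the mitochondrial ribosome (mitoribosome) were examined in RNA-seq of the mouse vestibular epithelium. The members were the protein-coding genes of the deposited count table whose symbol begins with Mrpl or Mrps followed by a digit, which gave 78 of the 52636 genes in the table. Another 5 entries with such a symbol were not protein-coding and stood outside the rule. Male 129S1/SvImJ mice aged 2 to 4 months drank plain water (Control, 3 animals) or water with 30 mM 3,3'-iminodipropionitrile (IDPN, 3 animals), a nitrile toxic to hair cells (HCs), the sensory cells of balance and hearing, for 8 weeks. Each library came from 1 animal, with 2 utricles and 6 cristae pooled, so the RNA came from HCs, supporting cells, nerve endings and stroma together. In such bulk samples, fewer cells of a type and less RNA per cell cannot be told apart.

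The mitoribosome translates the few mRNAs that the mitochondrial genome encodes, all of them for proteins of the respiratory chain and ATP synthase. Its RNAs are made in the mitochondrion, and all of its proteins are encoded in the nucleus, made on cytosolic ribosomes and imported. Some of these proteins descend from bacterial ribosomal proteins and others are found only in mitochondria. The small subunit reads the mRNA, and the large subunit joins the amino acids and releases the chain towards the inner membrane. The members divided into 26 small subunit genes, 51 large subunit genes and Mrps36, which carries a ribosomal name and is now placed in the alpha-ketoglutarate dehydrogenase complex. Mrps18a and Mrps30 carry small subunit names and belong to the large subunit.

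All 78 members were detected, with at least 182 estimated counts in every library, and all were among the 17650 genes that DESeq2 tested. Total estimated counts per library lay between 40474847 and 43566332. Levels are given as normalized counts, the estimated counts divided by the DESeq2 size factor of the library, which ran from 0.825 to 1.21. Calls required a DESeq2 Benjamini-Hochberg adjusted p (Padj) below 0.05 together with a change of more than 1.5-fold, up or down. Where 3 values are given for a group, they follow the order of libraries 1, 2 and 3. HC markers, which check the tissue, were present in every library. Of the 12, 8 were called lower in IDPN, against 3.42% of all genes tested. The summed level of the 12 ran from 27314 to 28197 normalized counts across Control libraries and from 16767 to 18062 across IDPN libraries.

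Exposure to IDPN left nearly all mitoribosomal genes without a detected change, and 1 gene, Mrps6, stood apart. Mrps6, a small subunit protein with a bacterial counterpart (S6), fell to 53.5% of its Control level. DESeq2 called 1 of 78 members lower, against 3.42% of all genes tested, and 0 of 78 higher, against 2.32% of all genes tested. The edgeR quasi-likelihood test called the same gene lower, where 2.19% of its tested genes were called lower. It called 0 members higher, against 166 of the 17650 genes tested by DESeq2. At an unadjusted DESeq2 p under 0.05 there were 4 lower members (Mrps6, Mrps18a, Mrpl20 and Mrpl41) and 1 higher (Mrps30). The share of all genes under that cutoff was not counted, so these numbers are not read as a result about the members. The smallest DESeq2 Padj among the 77 members not called was 0.124, for Mrpl20.

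Mrps6 (ENSMUSG00000039680.9, chr16:92058270-92112227, plus strand, GRCm38) was by far the most abundant member. Its mean was 5.16 times that of Mrpl28, the next by normalized counts. Per kilobase of transcript its level was 24.3 times that of the median member, ahead of Mrps33 and Mrpl17. The Control libraries had 19635, 19186 and 15126 normalized counts and the IDPN libraries 8480, 11619 and 8784. The groups did not overlap, and the highest IDPN library lay below the lowest Control library. The group means were 17982 ± 2483 (Control; SD, n = 3) and 9628 ± 1731 (IDPN; SD, n = 3), a log2 fold change of −0.90 (SE 0.18, DESeq2 Padj = 4.46e-05, edgeR adjusted p = 0.0350). The call held in 15 of 15 other settings of the test, scaling, filters and libraries, among them scaling by total counts, where the log2 fold change was −0.65. In edgeR fits without 1 library, a setting added later, the call was lost without Control 1 (adjusted p = 0.114), Control 2 (0.139), IDPN 1 (0.117) or IDPN 3 (0.157). It held without Control 3 (0.0275) or IDPN 2 (0.0305).

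**Figure D1:**
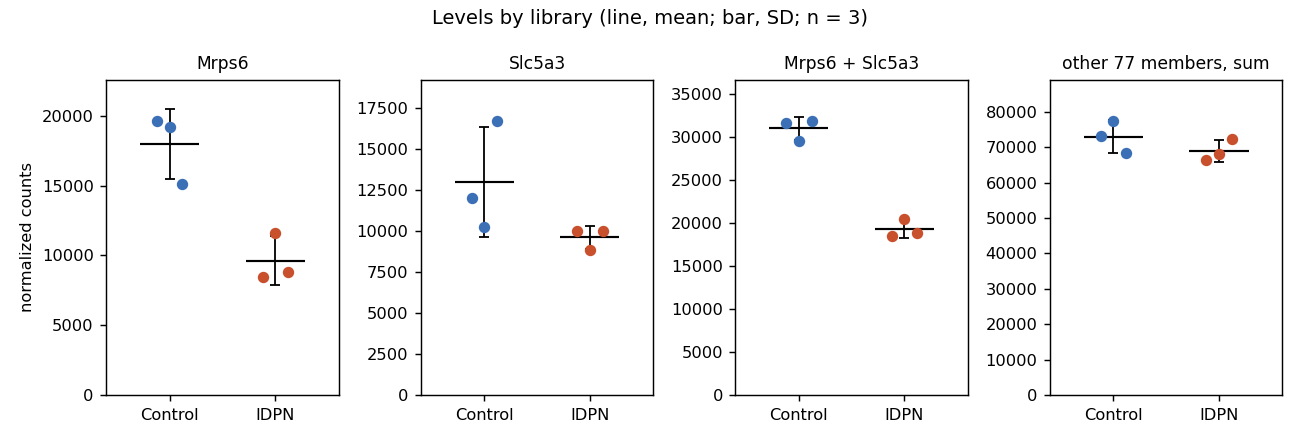
Normalized counts of Mrps6, its neighbour Slc5a3, the sum of both, and the sum of the other 77 members in each library (points; y axes in normalized counts, starting at 0; horizontal line, mean; bar, SD, n = 3). The 3 IDPN points of Mrps6 lie between 8480 and 11619, below the Control points at 15126 to 19635, while the sums of the other members overlap between the groups.

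Mrps6 took a large share of the members' normalized counts, which are not corrected for transcript length. It made up 21.1%, 19.9% and 18.1% of the members' summed normalized counts in the Control libraries, against 11.3%, 14.6% and 10.8% in the IDPN libraries. The sum over 78 members was 90987 ± 6845 for Control and 78534 ± 3272 for IDPN (SD, n = 3 each), a log2 ratio of −0.21. Without Mrps6 the sum was 73005 ± 4618 and 68906 ± 3069 (SD, n = 3 each), a log2 ratio of −0.083, and the groups overlapped.

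The upstream sequences of the 3 members most abundant per length are shown, so that the one that was called can be set beside the next 2. Each stretch runs from the start of the RefSeq promoter window (GRCm38.p6) to the base before the GENCODE gene start and is written in the direction of transcription. Capitals mark the GC box (GGGCGG, bound by SP1-type factors), the ETS motif (CCGGAAG, bound by GABP) and the core of the NRF1 motif (GCGCNTG), searched on both strands. GABP and NRF1 are known as regulators of nuclear genes for mitochondrial proteins. The stretches were chr16:92058086-92058269 (plus strand) for Mrps6, chr6:39810989-39811186 (minus strand) for Mrps33 and chr7:105811100-105811337 (minus strand) for Mrpl17.
Mrps6: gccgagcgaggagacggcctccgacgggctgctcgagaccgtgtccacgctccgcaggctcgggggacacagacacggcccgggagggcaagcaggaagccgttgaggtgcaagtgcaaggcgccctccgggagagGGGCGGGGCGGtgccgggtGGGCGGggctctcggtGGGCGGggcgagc
Mrps33: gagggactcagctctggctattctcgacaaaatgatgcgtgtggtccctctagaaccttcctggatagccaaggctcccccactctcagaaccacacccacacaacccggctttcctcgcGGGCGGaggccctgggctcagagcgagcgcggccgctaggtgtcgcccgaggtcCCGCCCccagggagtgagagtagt
Mrpl17: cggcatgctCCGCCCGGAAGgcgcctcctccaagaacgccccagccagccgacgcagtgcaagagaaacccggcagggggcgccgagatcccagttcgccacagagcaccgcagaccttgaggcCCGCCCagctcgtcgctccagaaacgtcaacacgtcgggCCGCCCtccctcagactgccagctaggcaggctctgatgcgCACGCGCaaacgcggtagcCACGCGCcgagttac
The Mrps6 stretch held 4 GC boxes, 2 of which overlap, and no match to the ETS or NRF1 letters. The Mrps33 stretch held 2 GC boxes, and its full window also held an ETS match outside the stretch. The Mrpl17 stretch held 3 GC boxes, 1 of which shares letters with its 1 ETS match, and 2 NRF1 core matches.

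RefSeq windows, from 250 bases before to 50 bases after a start site, were found for 69 of 78 members, with 75 windows in all. An ETS match lay in 34.7% of the members' windows and in 8.86% of all 32851 windows. For the NRF1 core the shares were 34.7% and 15.9%, for the YY1 core (AAGATGG) 17.3% and 6.34%, and for the GC box 52.0% and 35.7%. At least 1 of ETS, NRF1 and YY1 was matched in 65.3% of the members' windows and 27.1% of all windows. The Mrps6 window was among the 34.7% of member windows with none of these 3. A match in letters does not show binding, and the lack of one says only that these letters are not in the window.

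Mrps6 shares its first exon with Slc5a3, the sodium-dependent myo-inositol transporter, which is transcribed in the same direction. The shared exon sequence spans 159 bases (chr16:92058322-92058480), and the RefSeq start sites lie 14 bases apart. Reads that lie wholly within this exon match both genes, and the counting program divides such reads by estimate. Slc5a3 had 12008, 10283 and 16737 normalized counts in the Control libraries, and 10015, 8831 and 10038 in the IDPN libraries. All IDPN libraries lay below all Control libraries, by a narrow margin, and the log2 fold change of −0.43 was not called (SE 0.19, DESeq2 Padj = 0.190, edgeR adjusted p = 0.314). Per kilobase, the Control level of Mrps6 was 17.8 times that of Slc5a3. Control 3 had the lowest Mrps6 and the highest Slc5a3 of the Control libraries, and IDPN 2 the highest Mrps6 and the lowest Slc5a3 of the IDPN libraries. The part of read division in the Mrps6 level was not tested.

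The other 77 members varied little. Their fold changes had 95% intervals that stayed within 1.5-fold of no change in 57 of 77, or 73.1% of all 78 members, where 29.2% of all genes tested had such an interval. For these 57, with the DESeq2 size factors, a change of 1.5-fold or more in either direction lay outside the interval, one gene at a time. Scaling by total counts moves the values up, and the intervals were not counted under it. Of the remaining 20, the interval reached past 1.5-fold lower in 14 and past 1.5-fold higher in 6, so a change of that size was not excluded for them at this number of animals. The median coefficient of variation of members was 10.1% in Control and 9.10% in IDPN, against 18.3% and 17.0% over all genes tested. Members had a median level of 807 normalized counts, against 314 over all genes tested, and the part of abundance in these shares was not tested.

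**Figure D2:**
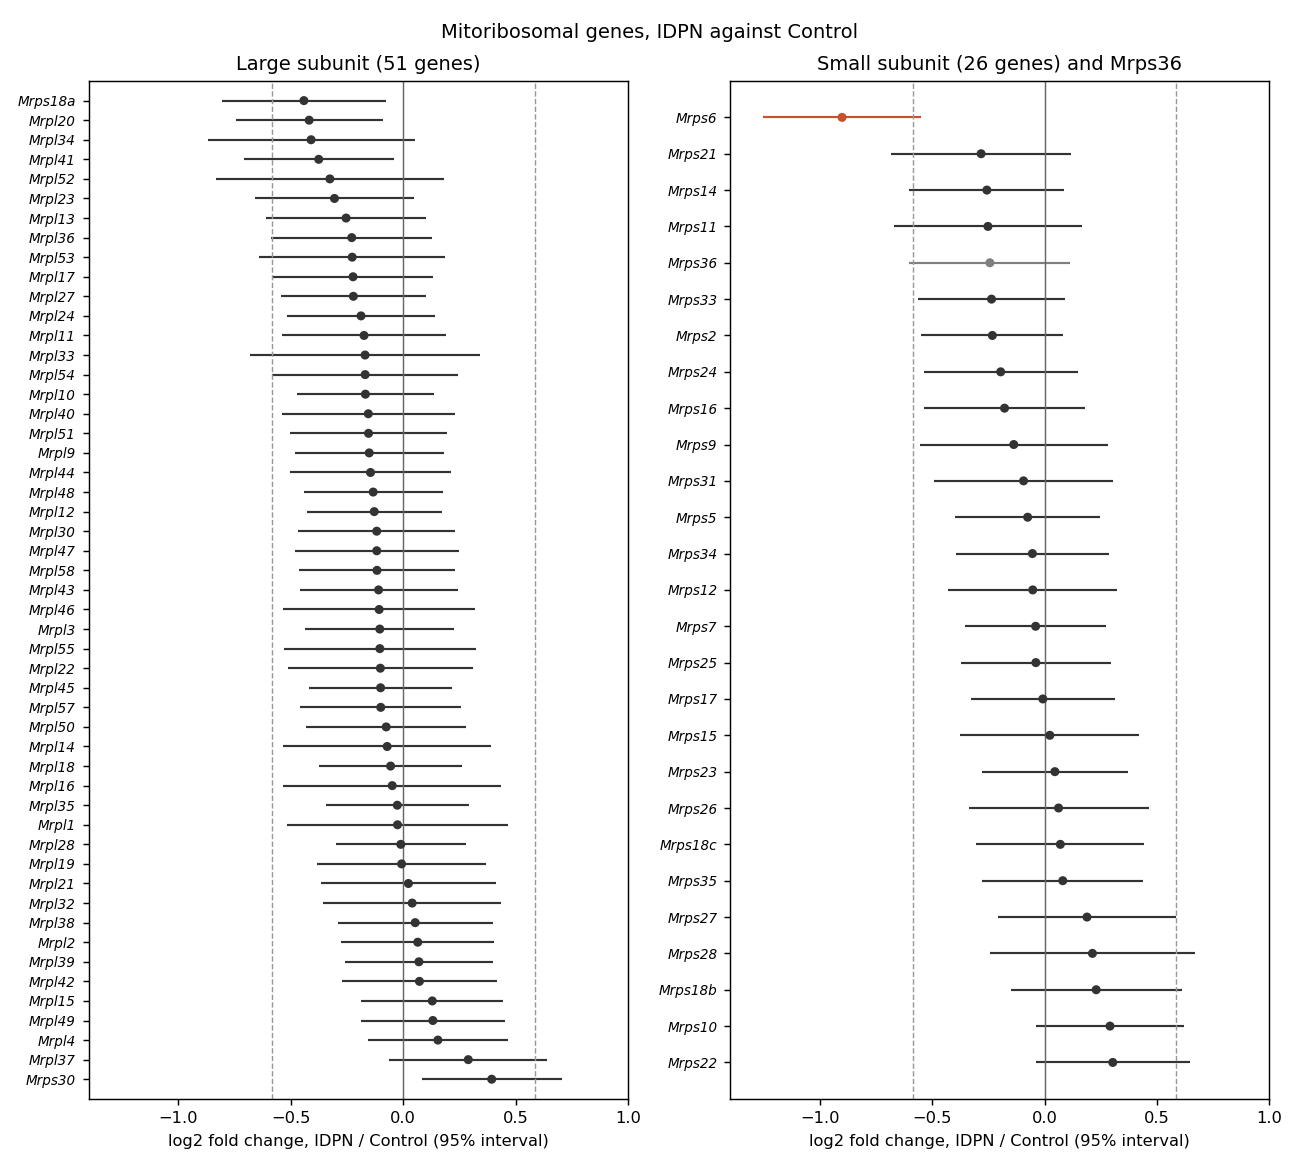
Log2 fold change of IDPN over Control for each of the 78 members (point) with its 95% interval (line), large subunit at left, small subunit and Mrps36 (grey) at right; dashed lines mark 1.5-fold. Mrps6 (orange) lies alone at −0.90, and the other members lie between −0.44 and 0.39. Under scaling by total counts all values move up, so that 9 of 78 in place of 57 of 78 are below 0. Of the 17650 genes tested, 4205 are below 0 under that scaling.

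The members leaned slightly to the lower side under the main scaling. The log2 fold change was below 0 in 57 and above 0 in 21, so 73.1% were lower, against 48.4% of all genes tested. Their median was −0.10 (−0.064 without Control 2), with quartiles at −0.19 and 0.02, beside a median of 0.02 and quartiles at −0.24 and 0.29 over all genes tested. This lean depended on the scaling. When libraries were scaled to equal total counts, the median of all genes tested shifted by 0.25 to 0.27, and the median of the members became 0.16. Under that scaling 9 of 78 members were below 0, against 4205 of the 17650 genes tested. Relative to the median of all genes, the members' median stood at −0.12 under the first scaling and −0.11 under the second. All 6 library medians of the members, each taken against the gene's mean over libraries, lay between −0.08 and 0.14 on the log2 scale, and Control 2 was the highest. Control 1 (0.02) and Control 3 (−0.03) lay within the range of the IDPN libraries (−0.08 to 0.03).

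**Figure D3:**
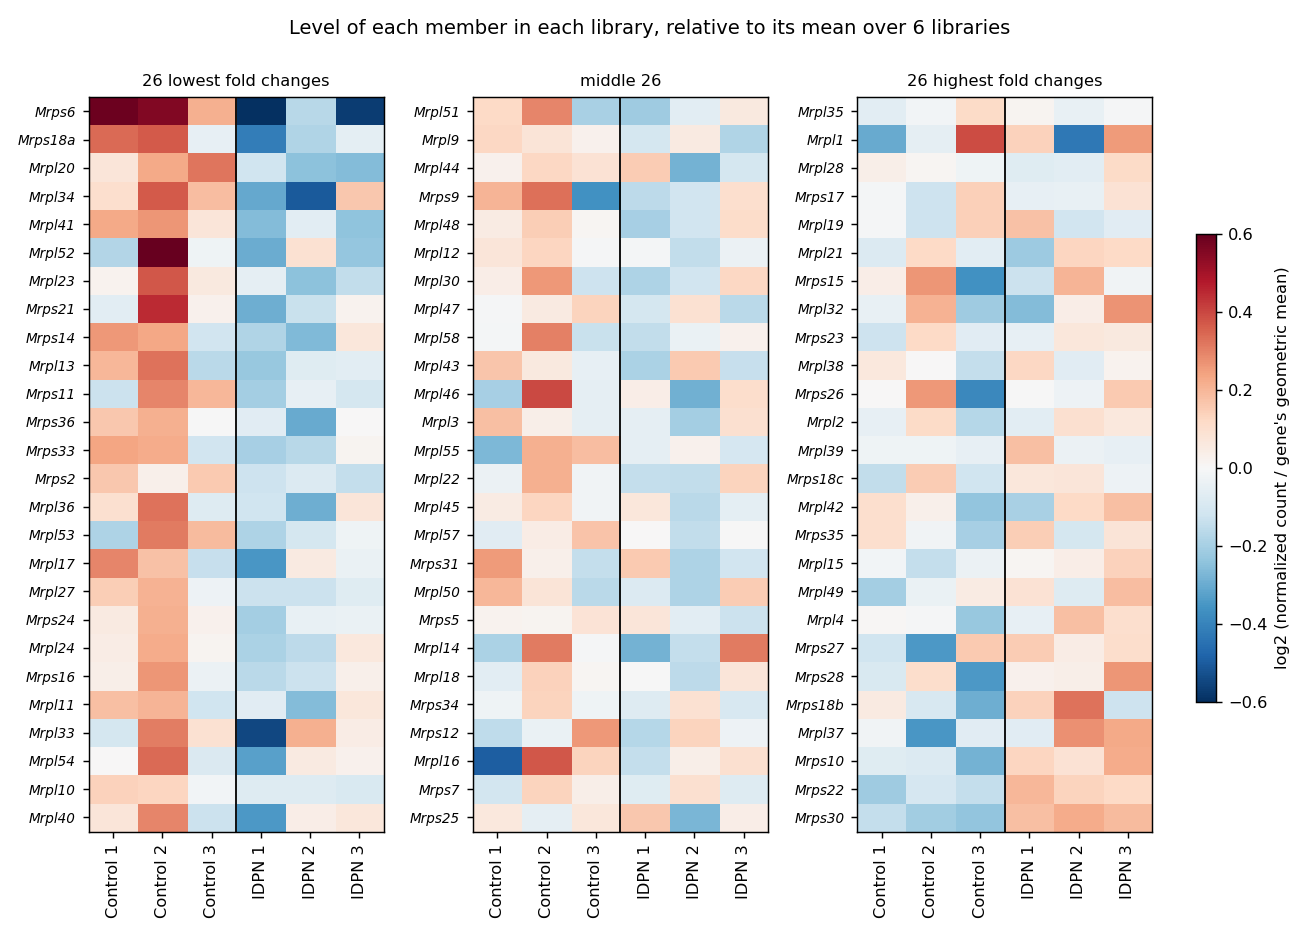
Level of each member in each of the 6 libraries as log2 of its normalized count over the gene's geometric mean across libraries (blue, lower; red, higher; colours saturate at 0.6 in either direction), with genes ordered by fold change from top left to bottom right. Mrps6, at top left, is red in the Control libraries and blue in the IDPN libraries, Control 2 is red for many members at left and centre, and under scaling by total counts the lower members at centre change direction.

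Groups without overlap between libraries were few. Every IDPN library lay below every Control library in 10 of 78 members (12.8%), against 11.4% of all genes tested. The 10 were Mrps6, Mrps18a, Mrpl20, Mrpl41, Mrpl23, Mrps2, Mrpl27, Mrps24, Mrpl10 and Mrpl12. Every IDPN library lay above every Control library in 4 of 78 (5.13%), against 11.1% of all genes tested, and these were Mrps30, Mrps22, Mrps10 and Mrpl15. The share of members below Control was near the background.

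Among the small subunit genes 16 of 26 were lower and 10 were higher, with a median log2 fold change of −0.05 (−0.016 without IDPN 1), and Mrps6 was the gene called. Among the large subunit genes 40 of 51 were lower and 11 higher, with a median of −0.11 (−0.064 without Control 2) and 0 called in either direction by DESeq2 or edgeR. Under scaling by total counts these medians were 0.20 and 0.15. The 16 small subunit genes with a bacterial homologue had a median of −0.11, with 12 lower. The 10 classed as mitochondria-specific had a median of 0.05, with 4 lower. That class held Mrps18b here and Mrps18a in the large subunit, although both belong to the S18 family, so it is not limited to proteins without bacterial relatives. In the large subunit the median was −0.11 in both classes, with 25 of 30 and 15 of 21 lower. The summed level of the large subunit was 50034 ± 3250 for Control and 46982 ± 2514 for IDPN (SD, n = 3 each). That of the small subunit without Mrps6 was 22310 ± 1332 and 21367 ± 547 (SD, n = 3 each).

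Among large subunit genes, Mrps18a (chr17:46110986-46128910), a relative of bacterial S18, had the lowest log2 fold change. Its Control libraries had 1562, 1592 and 1194 normalized counts and its IDPN libraries 926, 1088 and 1185. The groups did not overlap, although Control 3 and IDPN 3 nearly met. The log2 fold change of −0.44 (SE 0.19, DESeq2 Padj = 0.157) was not called. The other genes of the S18 family belong to the small subunit, and both were higher in IDPN on the log2 scale, with 0.23 for Mrps18b (DESeq2 Padj = 0.623) and 0.07 for Mrps18c (DESeq2 Padj = 0.917). The difference between family members was not tested.

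Mrpl20 (chr4:155802878-155809975), which has a bacterial counterpart, had 958, 1068 and 1140 normalized counts in the Control libraries, and 840, 767 and 762 in the IDPN libraries. All IDPN values lay below all Control values, with a log2 fold change of −0.42 (SE 0.17, DESeq2 Padj = 0.124). Mrpl41, a subunit found only in mitochondria, went from 895 to 690 on average, a log2 fold change of −0.38 (SE 0.17, DESeq2 Padj = 0.205), with no overlap. Mrpl34, another protein with a bacterial counterpart, had a log2 fold change of −0.41 (SE 0.23, DESeq2 Padj = 0.381), and its groups overlapped, with IDPN 3 at 357 against 342 in Control 1. The same was true of Mrpl52 (−0.33, SE 0.26, DESeq2 Padj = 0.592), where Control 2 at 469 was far above the other libraries at 245 to 321. Mrpl23, a protein of the region where the new chain leaves the ribosome, had a log2 fold change of −0.31 (SE 0.18, DESeq2 Padj = 0.401). A processed pseudogene, Mrpl23-ps1, was counted at a mean of 420 in Control and 322 in IDPN, and the split of reads between the pair is uncertain. Mrps21 of the small subunit, with a bacterial counterpart, had a log2 fold change of −0.28 (SE 0.20, DESeq2 Padj = 0.535) and overlapping groups.

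The highest member was Mrps30 (chr13:118378381-118387252), a large subunit protein found only in mitochondria. Its Control libraries had 774, 739 and 725 normalized counts and its IDPN libraries 969, 996 and 973. The replicates were tight and the groups did not overlap, and the log2 fold change of 0.39 (SE 0.16) did not pass the test (DESeq2 Padj = 0.133, edgeR adjusted p = 0.113). Under scaling by total counts Mrps30 had a log2 fold change of 0.65 and came close to a call without reaching it (DESeq2 Padj = 0.0567). Its exons overlap those of B430218F22Rik on the opposite strand, and the protocol does not mark strand, so their reads cannot be told apart where they overlap. Mrpl37, which is related to Mrps30 in sequence, had a log2 fold change of 0.29 (SE 0.18, DESeq2 Padj = 0.439) with overlapping groups.

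The other members at the higher end belonged mainly to the small subunit. Mrps22, found only in mitochondria, had 451, 487 and 474 normalized counts in the Control libraries against 600, 574 and 568 in the IDPN libraries, a log2 fold change of 0.30 (SE 0.17, DESeq2 Padj = 0.385). Mrps10, with a bacterial counterpart, had a log2 fold change of 0.29 (SE 0.17, DESeq2 Padj = 0.388), and as with Mrps22 every IDPN library was above every Control library. Mrps28 (0.21), Mrps27 (0.19) and Mrpl4 of the large subunit (0.15) had overlapping groups.

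A further 5 members with a distinct role showed no detected change, and all 5 switched direction under scaling by total counts. Mrpl12, which forms the stalk that recruits translation factors, had a log2 fold change of −0.13 (SE 0.15). Mrpl45, which ties the ribosome to the inner membrane, had −0.10 (SE 0.16), and Mrpl58, a hydrolase that rescues stalled ribosomes, −0.12 (SE 0.18). Mrps12, a protein of the decoding centre, had −0.05 (SE 0.19), and Mrps36 had −0.24 (SE 0.18). The DESeq2 Padj of these 5 genes lay between 0.559 and 0.939. The 95% interval of Mrps36 reached past 1.5-fold lower, and those of the other 4 did not. Of the abundant members besides Mrps6, Mrps33 had a log2 fold change of −0.24 (SE 0.17) and Mrpl17 one of −0.22 (SE 0.18), and these 2 also changed sign under that scaling.

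Fold change varied with transcript length. The 26 shortest members (405 to 803 bases) had a median log2 fold change of −0.20, with 21 lower, the middle 26 a median of −0.06 and the 26 longest a median of −0.08. Across the 78 members, which share the same libraries and are not independent replicates, Spearman's rho between log2 fold change and length was 0.37, against 0.11 across all genes tested, and that with GC content was −0.16. With a smooth length offset in each library the 3 medians were −0.09, −0.02 and −0.08. The lower values of short members such as Mrpl20, Mrpl34, Mrpl41 and Mrpl52 thus stand beside a length trend in these libraries, and its part in them was not tested. Mrps6, at 846 bases in the middle group, kept a log2 fold change of −0.84 with that offset (DESeq2 Padj = 1.16e-05).

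**Figure D4:**
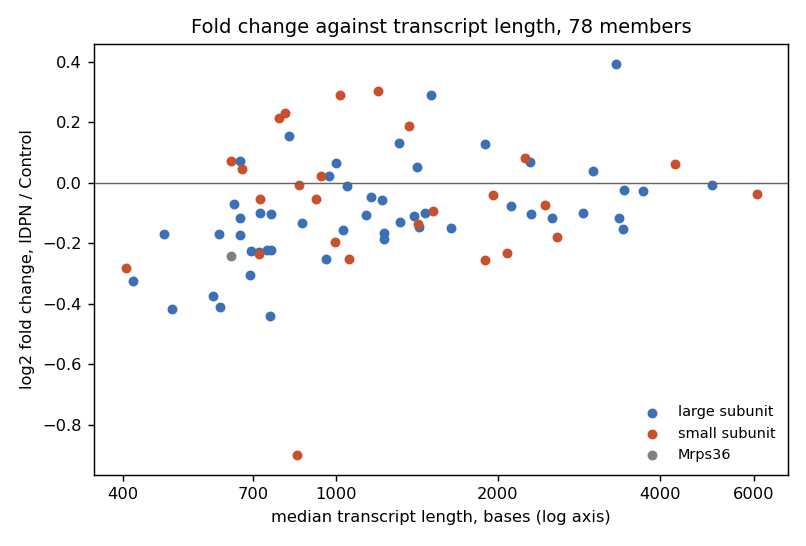
Log2 fold change of IDPN over Control against the median transcript length in bases (log axis) for the 78 members, by subunit. The members under 803 bases lie mostly below 0, with a median of −0.20, and Mrps6 lies alone at −0.90; values move up by about 0.25 under scaling by total counts.

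Of the partners that build and run the mitoribosome, 1 gene was called by DESeq2. With 3.42% of all genes tested called lower and 2.32% higher, lists of this length are too short to read a count of 0 against those shares. The 5 tested subunits without an Mrp symbol (Dap3, Ptcd3, Chchd1, Aurkaip1 and Gadd45gip1) had a median log2 fold change of −0.17, which turned to 0.095 under scaling by total counts, with 0 called by DESeq2 or edgeR. The 16 mitochondrial translation factors had a median of 0.04, the 22 tested assembly and rRNA factors −0.01, and the 12 regulators of mitochondrial transcription and biogenesis 0.09, each with 0 called by either tool. Under scaling by total counts these 3 medians were 0.28, 0.23 and 0.35. Of the 19 mitochondrial aminoacyl tRNA synthetases (median −0.05, and 0.20 under that scaling) DESeq2 called Yars2, named after its value was seen, higher (log2 fold change 0.97, Padj = 0.0496). The edgeR test did not call it (adjusted p = 0.182), and its Control libraries ran from 102 to 337 normalized counts. The 20 genes of general mitochondrial content had a median of −0.09, and 0.17 under that scaling, with 0 called by DESeq2 or edgeR.

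The mRNAs that the mitoribosome translates, the nuclear genes for other respiratory chain subunits and the cytosolic ribosomal protein genes are given on the same scale. The respiratory chain list here includes subunits of ATP synthase. All 13 mRNAs of the mitochondrial genome had a log2 fold change below 0 (median −0.73), and DESeq2 called 8 lower, although edgeR called 0 and the median was −0.45 under scaling by total counts. Among 82 tested nuclear genes for respiratory chain subunits 76 were lower (median −0.26). DESeq2 called 3 lower (Atp5e, Ndufa1 and Atp5h, named after their values were seen), a share near the 3.42% of all genes tested. The edgeR test called 1 lower, where 2.19% of its tested genes were called lower. Under scaling by total counts the median of these respiratory chain genes was 0.01. The 78 cytosolic ribosomal protein genes were all lower (median −0.50, and −0.23 under scaling by total counts), with 8 called by DESeq2 and 0 by edgeR. Every IDPN library lay below every Control library in 5 of these 78 (6.41%), against 11.4% of all genes tested. Their summed levels overlapped, at 607979 to 1065427 normalized counts in Control and 536222 to 743319 in IDPN. These cytosolic genes varied more between animals, with a median coefficient of variation of 28.3% in Control and 16.6% in IDPN. The differences between these lists and the members were not tested.

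**Figure D5:**
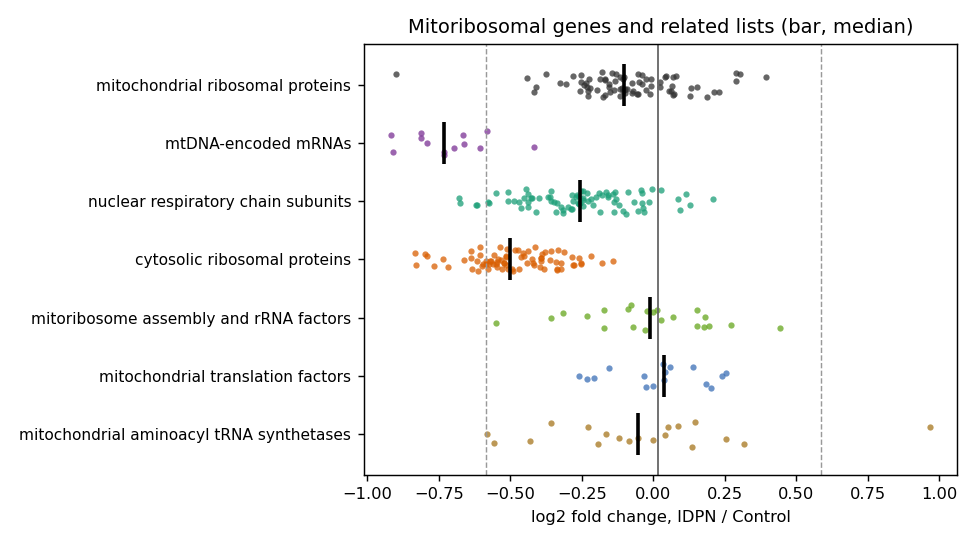
Log2 fold change of IDPN over Control (x axis; dashed lines, 1.5-fold; grey line, median of all genes tested) for each gene of the mitoribosomal list and of 6 related lists (points, spread vertically at random; bar, median). Members centre at −0.10, the mitochondrial mRNAs at −0.73 and the cytosolic ribosomal proteins at −0.50, and under scaling by total counts the members centre at 0.16 and the other 2 at −0.45 and −0.23.

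Markers of several cell types moved between the groups. The 12 HC markers had a median log2 fold change of −0.73, with 8 called lower by DESeq2 and 7 by edgeR. Of all genes tested, DESeq2 called 3.42% lower and 2.32% higher, and edgeR called 2.19% of its tested genes lower. Pou4f3, a transcription factor of HCs, averaged 6354 ± 494 normalized counts under plain water and 3174 ± 79.6 under IDPN (SD, n = 3 each). Of the 12, 11 were lower and 1 was higher. Myo7a (0.01, DESeq2 Padj = 0.987) and Myo6 (−0.21, DESeq2 Padj = 0.48), named after their values were seen, were not called. Of 9 supporting cell markers 1 was called lower and 1 higher (median −0.34), of 5 neuronal markers tested 3 were called lower (−0.59), and of 5 erythroid markers 4 were called higher (0.83). The edgeR test called 0 supporting cell markers lower and 1 higher, 2 neuronal markers lower and 0 erythroid markers in either direction. The 7 macrophage (0.50), 5 Schwann cell (−0.24) and 6 stromal markers (0.34) had 0 called in either direction by DESeq2 or edgeR. The ranges of summed levels in Control and IDPN were 181954 to 245637 and 138514 to 164220 for supporting cells, 4912 to 5133 and 3073 to 3376 for neurons, 16166 to 36635 and 34689 to 49091 for erythroid cells, and 1143 to 1440 and 1334 to 1781 for macrophages. For Schwann cells they were 87617 to 204270 and 78219 to 94200, and for stroma 20441 to 39051 and 35993 to 38675. No marker was at 0 throughout. The neuronal sum was nearly all Nefl, Nefm and Snap25, the genes called lower by DESeq2. Stmn2, Tubb3 and Nefh were near the floor, with means of 9.79, 9.47 and 2.81 normalized counts. The supporting cell sum was mostly Sparcl1 and Otog, with means of 112670 and 43566 normalized counts. Of the 9 supporting cell markers, 7 were lower and 2 higher. The 1 called higher was Sox10, named after its value was seen (0.80, DESeq2 Padj = 0.00108, edgeR adjusted p = 0.0464). As with Mrps6, the summed HC, neuronal and supporting cell markers were lower in IDPN with no overlap between the groups. The part of cell composition in the Mrps6 level was not tested.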

How the data were processed

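Total RNA (6 to 11 ng) was reverse transcribed from an oligo-dT primer by SMART-seq2, without molecular identifiers or strand marks, so reads are not independent molecules. Paired reads were aligned by the authors with STAR 2.5.3a to GRCm38, and the deposited values are the expected counts per gene that RSEM 2.3.0 estimated on GENCODE M15, given as whole numbers without normalization. RSEM divides reads shared by several genes. The authors' labels give all 6 libraries 1 batch, and each library is 1 animal.

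From these expected counts, differences were computed over the whole table with DESeq2 1.42.0 (R 4.3.3, Wald test, median-of-ratios size factors, no covariate), and with edgeR 4.0.16 (quasi-likelihood, TMM) as an alternative. Intervals are 95% Wald intervals. Totals of 40474847 to 43566332 counts gave members standard errors of 0.147 to 0.260 on the log2 scale. Alternatives covered the size factors, low counts (10 counts in 3 samples), the Cook's and independent filters, gene type, length and GC offsets (lowess span 0.3), the fold threshold and each library in turn; edgeR without each library was added after seeing the data. The code was tested on simulated data. The members and lists were chosen with earlier results of these data known, so no list was tested as such. Named were members called by either tool, the 8 highest and 8 lowest by log2 fold change with a mean of at least 100 normalized counts, the 3 most abundant per length, and 9 with a known role. Positions and lengths came from GENCODE M21 on the same build (a length for 78 of 78 members), and motif windows from RefSeq. In M21, exons of 33 members overlap those of other genes, 8 on the same strand. Sample titles of the 3 Control animals carry a common number, those of IDPN 2 and IDPN 3 share another, and IDPN 1 has its own. What the numbers mark is not given in the sources used here, and for Control it cannot be told apart from the exposure.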

Additional observations from a re-analysis of the deposited data

How the results depend on the processing

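The DESeq2 call of Mrps6 and the counts of 1 lower and 0 higher member were the same in all alternatives run, except for edgeR without Control 1, Control 2, IDPN 1 or IDPN 3, where Mrps6 was not called (log2 fold changes −0.84, −0.85, −0.82 and −0.84). Without 1 library in DESeq2, its log2 fold change ran from −1.06 to −0.81. Scaling by total counts moved the median log2 fold change from −0.10 to 0.16 over all members, from −0.05 to 0.20 in the small subunit and from −0.11 to 0.15 in the large subunit, and the log2 ratio of the summed level from −0.21 to 0.047. It also turned Mrpl12 (0.13), Mrpl17 (0.035), Mrpl45 (0.16), Mrpl58 (0.15), Mrps12 (0.17), Mrps33 (0.035) and Mrps36 (0.027) to higher, because it shifts all genes together. Mrps12 was also higher with the length offset (0.0083). Without 1 library Mrps12 ran from −0.14 to 0.078 (higher without Control 3 or IDPN 1) and Mrpl58 from −0.21 to 0.013 (higher without Control 2), and the cause was not tested. No paired analysis was possible because the replicate numbers only follow the order of the samples. By its threshold, no difference under 1.5-fold was called. Without Control 3, Mrps18a passed the Padj alone (log2 fold change −0.56, DESeq2 Padj = 0.0209). Without 1 library the medians ran from −0.14 to −0.064 over all members, from −0.16 to −0.064 in the large and from −0.069 to −0.016 in the small subunit.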

Other observations

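The normalized counts of Mrps6 and Slc5a3, which share a first exon, were added after their values had been seen. For libraries 1, 2 and 3 in turn, the sums were 31643, 29469 and 31863 (Control) and 18496, 20450 and 18822 (IDPN), with no overlap. The coefficient of variation of the sum was 4.27% in Control and 5.44% in IDPN, against 13.8% and 18.0% for Mrps6 alone and 25.7% and 7.17% for Slc5a3 alone. Control 3 had the lowest Mrps6 and the highest Slc5a3 of the Control libraries, and IDPN 2 the highest Mrps6 and the lowest Slc5a3 of the IDPN libraries. The log2 ratio of the sum was −0.69. A further gene of the later annotation, Gm49711, shares exons with Mrps6 on the same strand and was not analysed here.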
